A study of Mus musculus with 12 samples.

Results

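Read density along the 19 autosomes was measured in 257 windows of 10 Mb, of 285 such windows when chromosomes X (18) and Y (10) are included. The autosomes were divided from position 0, and the value of a window in a library is the median over its 1 kb bins of the reads in the bin divided by the mean of all autosomal bins of that library. A value of 1 is therefore the autosomal average. Bins with 0 reads in the wild-type anti-GZF1 library of the Cas9 line were left out (128716 bins, 5.23% of the autosomal bins), and the windows then held between 29 and 9955 bins, with a median of 9784.

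The libraries come from a study of the zinc finger protein GZF1 and imprinting of the Dlk1-Dio3 domain in mouse embryonic stem cells. Cells were fixed with formaldehyde, chromatin was digested with micrococcal nuclease, and reads were aligned to mm10. In the Cas9-GFP line the libraries are Gzf1 knockout with anti-GZF1, Gzf1-Flag overexpression clone 35 with anti-FLAG M2, control with anti-GZF1, wild type with anti-GZF1, wild type with anti-H3K27ac, and input chromatin. In the RGM line, a cross of 129 and CAST mouse strains, they are Gzf1-Flag overexpression clone 56 with anti-FLAG M2 and wild type with anti-GZF1. Clones 35 and 56 are 1 clone each, Gzf1-Flag was expressed ectopically, and the labels do not say how the control differs from the wild type or whether the knockout is 1 clone. The table holds 8 of the 12 libraries, and the other 4 were not analysed here. Every group has 1 library, so no difference between groups has a replicate check and no test was run.

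Mouse embryonic stem cells often lose or gain chromosomes in culture. Gains of chromosomes 8 and 11 are the changes most often described, and XX lines commonly lose one X. Changes that speed up growth spread through a culture, and a line grown from 1 cell carries that cell's karyotype. In reads from chromatin, a gain raises the read density of a whole chromosome or of a stretch with sharp ends, whereas chromatin structure can give differences that follow gene-rich and gene-poor regions. In every cell, 3 copies against 2 correspond to a ratio of 1.5, or 0.58 on the log2 scale, and a ratio of 5 to 4 to 0.32. Because the values are relative to the autosomal mean, copies per cell, the share of cells with a change and reads recovered per copy cannot be told apart.

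The libraries differed in depth and in kind. They held 10.1 to 94.2 M reads, with 3.93 reads per autosomal bin in the input, 8.61 in RGM wild type and 15.9 to 35.8 in the others. A single read moves a bin by 0.255 in the input and by 0.116 in RGM wild type, so their window medians move in steps and took only 36 and 81 distinct values. The knockout and control libraries stood apart from the other 6. They left 2.71% of autosomal bins without reads, against 5.02% to 17.2% in the others. They had reads in 25403 and 24662 of 91745 Y bins, against 96 to 742. Their density in the left-out autosomal bins was 0.411 and 0.394, against 0.0147 or less, with 0 in Cas9 wild-type anti-GZF1 by definition. Their window values had an SD of 0.141 and 0.143, against 0.217 to 0.260, and a rank correlation with genes per Mb of 0.27 and 0.27, against 0.49 to 0.69 over the same 257 windows. H3K27ac over input was read at both ends of each gene and the higher value was kept, which raises every median. The median log2 was 0.55 over 7 embryonic stem cell markers, 0.44 over 6 fibroblast markers and 0.37 over all 20665 protein-coding genes. The list ranges overlapped, so the mark did not set the labelled cell type apart from fibroblasts.

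In the Gzf1 knockout, whole chromosomes 8, 18 and 19 and stretches of chromosomes 1 and 9 had more reads than in the control, and chromosome 6 and stretches of chromosomes 2, 4 and 14 had fewer. Of 257 windows, 30 were past a ratio of 5 to 4, that is 0.32 on the log2 scale, either way (11.7%), 20 of them higher (7.78%) and 10 lower (3.89%). Ratios here and below are centred on the median ratio of all autosomal windows. At the smaller log2 ratio of 0.20, used for chromosome medians, 39 windows were higher (15.2%) and 34 lower (13.2%), and 0 were past 1.4-fold in either direction. The windows nearest the 5 to 4 limit on the low side were on chromosome 4, with a log2 ratio of −0.34 for 80 to 90 Mb, just past it, and of −0.31 for 90 to 100 Mb, just short of it.

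**Figure D1:**
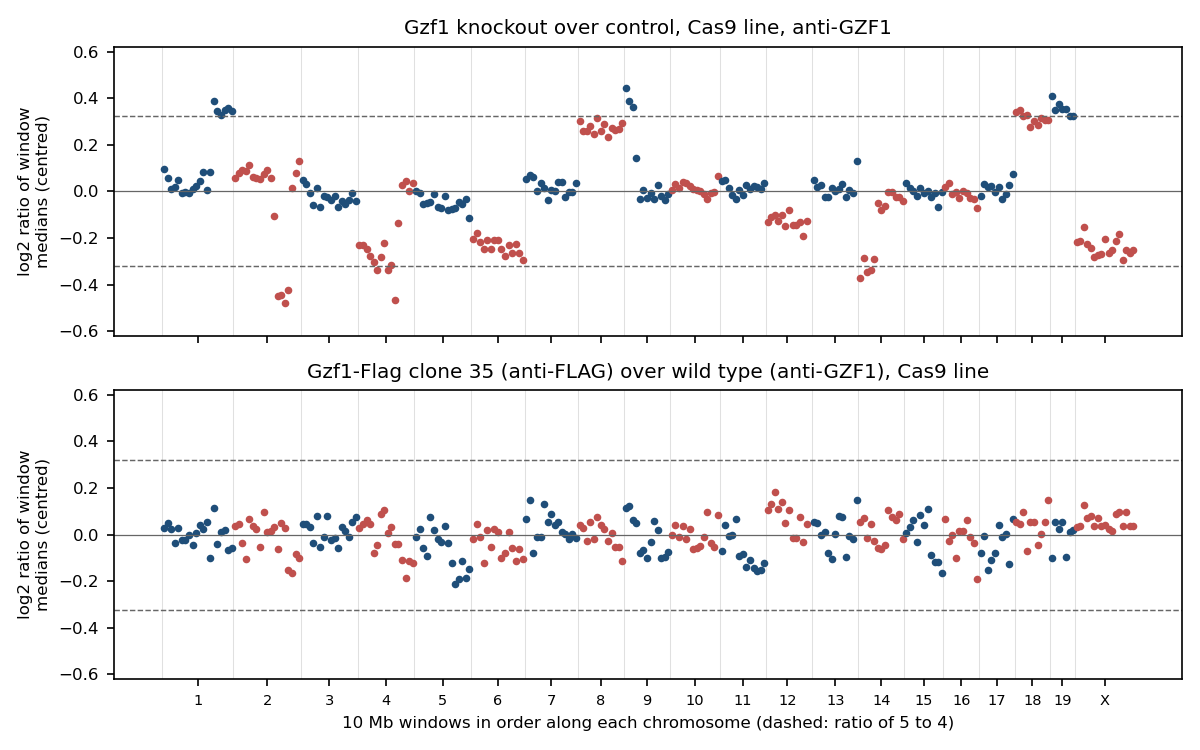
Each point is one 10 Mb window in order along the chromosome, with the log2 ratio of window medians, centred on the autosomal median, on the vertical axis; colours alternate between chromosomes, dashed lines mark a ratio of 5 to 4 and windows under 100 bins are not drawn. In the knockout over the control (upper panel) whole chromosomes and stretches sit on separate levels, with 30 of 257 windows past the lines, while clone 35 over wild type (lower panel) has 0 of 257 past them.

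Chromosome 8, which carries the pluripotency genes Klf2 and Zfp42, was higher in the knockout in 13 of 13 windows. Its median window value was 1.26 in the knockout and 1.06 in the control, and it was 1.09 in clone 35, 1.05 for H3K27ac, 1.06 in wild type, 1.02 in the input, 0.965 in RGM clone 56 and 0.929 in RGM wild type. The knockout library is thus the one of the 8 with the highest value, and the other 7 lie between 0.929 and 1.09. The median log2 ratio of knockout to control was 0.27, with an SD of 0.02 over windows and a range of 0.23 to 0.31. The ratio of summed reads was 1.202 (95% exact binomial interval 1.201 to 1.204). Such intervals cover counting error only, since sequenced reads are not independent molecules.

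Chromosome 11, the other chromosome most often described as gained, had a median of 1.152 in the knockout and 1.152 in the control. Its log2 ratio was 0.02, with windows between −0.03 and 0.05. In the other libraries it stood higher, at 1.35 in clone 35, 1.29 for H3K27ac, 1.39 in wild type, 1.27 in the input, 1.32 in RGM clone 56 and 1.28 in RGM wild type. It held Trp53, the p53 gene, and Birc5, the gene of the mitotic regulator survivin, on one level with the rest of the chromosome.

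Chromosomes 18 and 19 were also higher in the knockout along their whole length. Chromosome 18 had a median of 1.04 in the knockout and 0.839 in the control, a log2 ratio of 0.31 in 10 of 10 windows (SD 0.02, range 0.28 to 0.35). The other 6 libraries had 0.723 to 0.865, so that the control lay within them and the knockout above them. Chromosome 19 had a median of 1.16 in the knockout and 0.919 in the control, a log2 ratio of 0.35 in 7 of 7 windows (SD 0.03, range 0.32 to 0.41). In the other 6 libraries it had 0.764 to 1.02, again below the knockout. The imprinted gene Impact lies on chromosome 18 in a stretch with a log2 ratio of 0.32.

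Chromosome 6 was lower in the knockout in every window. It had a median of 1.06 in the knockout and 1.248 in the control, a log2 ratio of −0.23 in 15 of 15 windows (SD 0.03, range −0.29 to −0.18). Here it was the control that stood high within the Cas9 line, where clone 35 had 0.987, H3K27ac 1.01, wild type 0.958 and the input 1.02. The RGM libraries were nearer the control, with 1.24 in clone 56 and 1.16 in wild type. Chromosome 6 carries Nanog, a core pluripotency factor, the receptor tyrosine kinase gene Ret, and the imprinted gene Mest. Chromosome 12 was lower by less, with 1.01 in the knockout, 1.11 in the control and a log2 ratio of −0.13 in 13 of 13 windows.

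**Figure D2:**
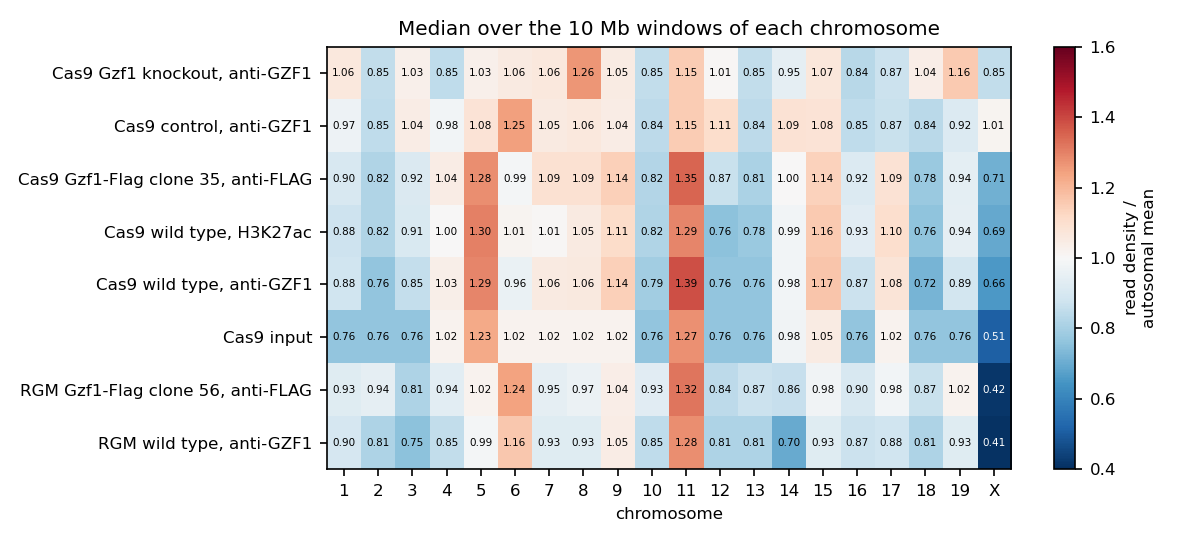
Each cell gives the median of the 10 Mb window values of one chromosome (columns) in one library (rows), as read density over the library's autosomal mean, with red above and blue below 1. Chromosome 8 reaches 1.26 in the knockout, chromosome 6 reaches 1.248 in the control, 1.24 in RGM clone 56 and 1.16 in RGM wild type, and chromosome X ranges from 0.406 to 1.01.

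The chromosome medians of the knockout and the control fell on a few levels. In the knockout, chromosomes 2, 4, 10, 13, 16 and 17 had 0.835 to 0.869, chromosomes 1, 3, 5, 6, 7, 9, 12, 15 and 18 had 1.01 to 1.07, chromosomes 11 and 19 had 1.152 and 1.16, and chromosome 8 had 1.26. In the control, chromosomes 2, 10, 13, 16, 17 and 18 had 0.839 to 0.866, chromosomes 3, 5, 7, 8, 9, 12, 14 and 15 had 1.04 to 1.11, chromosome 11 had 1.152 and chromosome 6 had 1.248. Chromosomes 10, 13, 16 and 17 were on the lowest level in both, and their log2 ratios between knockout and control were −0.01 to 0.02. In the wild type of the same line these 4 chromosomes ranged from 0.763 to 1.08. This grouping was made after the values were seen, and chromosomes 1, 4 and 19 of the control (0.969, 0.981 and 0.919) and 14 of the knockout (0.946) lay between the levels.

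In knockout over control, 5 chromosomes changed level with sharp edges when the ratio was followed in 1 Mb windows and divided where neighbouring stretches of at least 5 Mb differed by 0.2 or more on the log2 scale. Of these stretches the one with the lowest median lay on chromosome 2, from 116 to 163 Mb (47 windows of 1 Mb), with a median log2 ratio of −0.45 (SD 0.04, range −0.50 to −0.30). The flanks were at 0.07 before it (113 windows, SD 0.04) and at 0.10 after it (17 windows, SD 0.04). Across the first edge, from the 3 Mb before it to the 3 Mb after it, read density changed by −0.33 on the log2 scale in the knockout and by 0.14 in the control. The other 6 libraries rose there by 0.17 to 0.30, so that the knockout was the one library that stepped down. Across the second edge the knockout rose by 0.89, against 0.29 in the control and 0.50 to 0.70 in the others.

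Gzf1, the targeted gene (chr2:148679384-148692949), and Dnmt3b, a de novo DNA methyltransferase gene, both lie inside that stretch. The 140 to 150 Mb window with Gzf1 was the lowest of the 257 in this comparison, with a log2 ratio of −0.48. Its value was 0.577 in the knockout and 0.811 in the control, and 0.974 in clone 35, 0.929 for H3K27ac, 0.916 in wild type, 1.02 in the input, 0.9002 in RGM clone 56 and 0.813 in RGM wild type. The knockout was below all 7 others. The lower density covers a stretch far larger than the gene, and windows of this size do not show the edited site and so do not check the knockout label.

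Chromosome 4 was lower in the knockout from 3 to 112 Mb, with a median log2 ratio of −0.29 over 108 windows of 1 Mb (SD 0.09), and level with the control beyond it, at 0.02 over 45 windows (SD 0.04). The stretch was not even. Its last 5 Mb, from 107 to 112 Mb, had −0.57 (range −0.69 to −0.55), against −0.29 for 3 to 107 Mb (range −0.49 to −0.14). These limits were chosen after the values were seen. The 100 to 110 Mb window had 0.855 in the knockout and 1.19 in the control, with 1.21 in clone 35, 1.19 for H3K27ac, 1.19 in wild type, 1.10 in the input, 1.08 in RGM clone 56 and 1.05 in RGM wild type. The control was within the range of the other libraries and the knockout below it. Klf4, a reprogramming factor, lies in the lower stretch, and Lin28a, a pluripotency RNA-binding protein gene, in the level one.

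Chromosome 1 was higher in the knockout from 138 Mb to its end, with a median log2 ratio of 0.34 (58 windows of 1 Mb, SD 0.04), against 0.03 before 138 Mb (135 windows, SD 0.05). In the 150 to 160 Mb window the knockout had 1.12 and the control 0.892, and the other 6 libraries had 0.764 to 1.04. Chromosome 9 was higher from 3 to 34 Mb, at 0.38 (31 windows, SD 0.05), and level beyond, at −0.01 (91 windows, SD 0.05). Across this edge density changed by −0.07 in the knockout and by 0.23 in the control, against −0.24 to −0.02 in the other 6. The control was apart at this position only. Across 35 Mb it rose by 0.50, within the 0.15 to 0.56 of the other 6, and the knockout rose by 0.29. The first window of chromosome 9, 0 to 10 Mb, had the highest ratio of the 257, 0.44. It had 1.07 in the knockout, 0.790 in the control and 0.509 to 0.772 in the other 6 libraries. Dnmt1, the maintenance DNA methyltransferase gene, lies in the higher stretch. Chromosome 14 was lower from 3 to 49 Mb, at −0.34 (45 windows, SD 0.05), against −0.03 beyond (76 windows, SD 0.05). There the 20 to 30 Mb window had 0.850 in the knockout and 1.09 in the control, and 1.06 to 1.21 in the others. Across the edge the knockout rose by 0.29 and the control changed by −0.003, against −0.56 to −0.22 in the others.

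**Figure D3:**
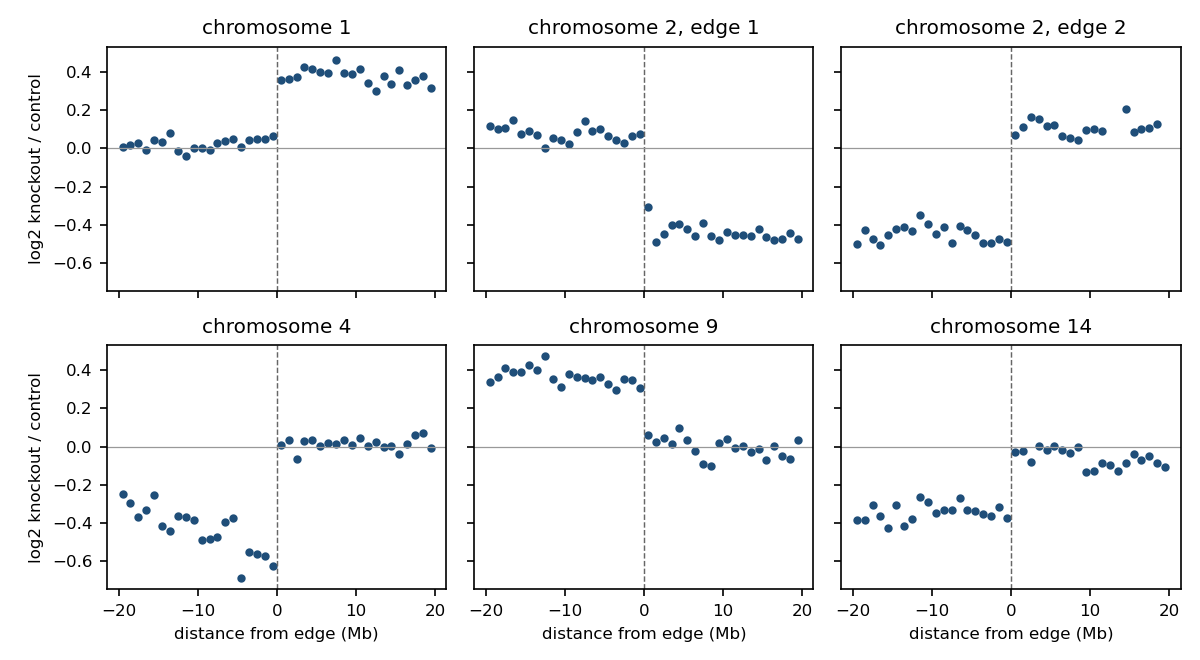
Each point is the log2 ratio of knockout to control in one 1 Mb window, against its distance in Mb from the edge (dashed line), within 20 Mb on both sides of the 6 edges found on chromosomes 1, 2, 4, 9 and 14. The level changes within 1 or 2 windows at each edge, and on chromosome 4 the ratio declines towards the edge to −0.69 before it returns to near 0.

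Chromosomes and stretches past 0.20 on the log2 scale covered 362 Mb higher (5 stretches, 15.1% of 2400 Mb) and 347 Mb lower (4 stretches, 14.5%) in the knockout. Within a level the windows varied little. The ratios computed separately from odd and even bins of the same window differed with an SD of 0.01 over 244 windows with at least 5000 bins. Of 39 genes placed (pluripotency, DNA methylation, imprinted, growth and cell-cycle genes, with Gzf1, Ret and Gdnf), 4 lay in a higher stretch, 6 in a lower one and 29 between. Their median log2 ratio was 0.02. A gene is placed here by its stretch and not by reads on the gene itself. The higher ones are Dnmt1, Klf2, Zfp42 and Impact, and the lower ones Gzf1, Dnmt3b, Klf4, Nanog, Ret and Mest. Pou5f1 and Sox2, the other core pluripotency genes, were between, with window values of 0.931 and 0.921 for Pou5f1 and 1.06 and 1.11 for Sox2 in knockout and control.

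Chromosome X, outside the autosomal windows, was lower in the knockout in 18 of 18 windows. It had a median of 0.850 in the knockout and 1.01 in the control, a log2 ratio of −0.25 (SD 0.05). The other Cas9 libraries had 0.712 in clone 35, 0.695 for H3K27ac, 0.657 in wild type and 0.509 in the input. The RGM libraries had 0.416 in clone 56 and 0.406 in wild type. The input value moves in steps of 0.255. As a mean over all X bins the input had 0.624, close to wild type (0.613), H3K27ac (0.638) and clone 35 (0.641). The control was highest and the RGM libraries lowest.

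Within the chromosome 12 level, the imprinted Dlk1-Dio3 domain stood out. The 1 Mb window from 109 to 110 Mb had a log2 ratio of knockout to control of −0.33, against a running median of −0.14 over 11 windows, the fourth largest such departure among 2400 windows (SD of all 0.04). In windows of 100 kb, the 7 between 109.3 and 110 Mb had a median of −0.40 (range −0.62 to −0.25), against −0.14 for the other 43 between 107 and 112 Mb (range −0.34 to 0.03). The lowest, −0.62 from 109.5 to 109.6 Mb, holds Meg3, the maternally expressed long non-coding RNA gene, and had 0.718 in the knockout and 1.11 in the control. The 10 Mb window around it showed little of this, with 1.01 in the knockout and 1.16 in the control. In control over wild type the same 7 windows had a median of 0.39, against 0.05 in the other 43. The ranges overlapped, with 0.03 to 0.66 in the 7 and −0.38 to 0.75 in the other 43. The highest of all, at 109.2 to 109.3 Mb, lay outside the 7. In clone 35 over wild type the 7 windows had a median of 0.01 against −0.06, and in RGM clone 56 over RGM wild type 0.06 against −0.02. Between lines they had 0.42 against 0.39 in RGM over Cas9 wild type, and 0.48 against 0.39 in clone 56 over clone 35. The Meg3 window was the highest between 107 and 112 Mb in both, at 0.98 and 0.73. The limits of 109.3 and 110 Mb were set after the values were seen. The 3 larger departures were at chromosome 4, 111 to 112 Mb (−0.62 against −0.37) and 107 to 108 Mb (−0.69 against −0.49), and at chromosome 19, 21 to 22 Mb (0.58 against 0.33).

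Control over wild type, both with anti-GZF1 in the Cas9 line, gave the most windows past 5 to 4, 65 of 257 (25.3%), with 30 higher (11.7%) and 35 lower (13.6%). The ratio fell with gene density. Its rank correlation with genes per Mb was −0.53 over 257 windows, against 0.03 for knockout over control, as a description of windows that share both libraries. Higher chromosomes were 12 (0.55, 13 of 13 windows), 6 (0.35, 15 of 15) and 3 (0.26, 14 of 16), and lower ones were 5 (−0.29), 11 (−0.32) and 17 (−0.39, 10 of 10 windows). The SD over the windows of these 6 chromosomes was 0.18 to 0.27, against 0.02 to 0.03 for chromosomes 6, 8, 18 and 19 in knockout over control. Chromosome 4, also past 0.20 there with a median of −0.239, had an SD of 0.155. It changed level at 112 Mb. Over all windows the SD was 0.31 for control over wild type and 0.17 for knockout over control. With the ratio corrected for genes per Mb, chromosome 11 was at −0.14, no longer past 0.20. Whether the chromosome values differ in copies or in the way chromatin was recovered cannot be told apart.

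**Figure D4:**
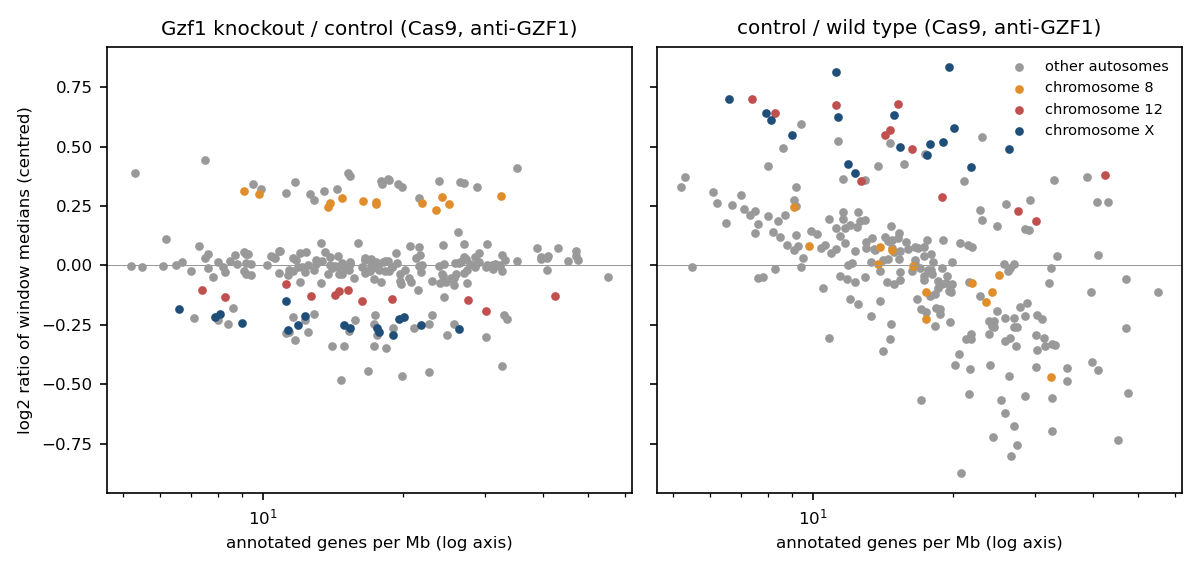
Each point is a 10 Mb window with at least 5000 bins, with annotated genes per Mb on a log axis and the centred log2 ratio on the vertical axis, for knockout over control (left) and control over wild type (right). On the left the windows lie on flat levels whatever the gene density (rank correlation 0.03 over all 257 windows). On the right the ratio falls with gene density (−0.53). There chromosomes 12 and X have the highest medians, but windows of chromosome 12 overlap those of other autosomes.

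Chromosome 12 had 1.11 in the control and 0.763 in wild type. H3K27ac had 0.756, the input 0.764, clone 35 0.866, RGM clone 56 0.843 and RGM wild type 0.813, and the knockout had 1.01. Knockout and control were thus above the other 6. Its windows past 5 to 4 formed runs from 0 to 70 Mb (0.57, SD 0.12) and from 110 to 130 Mb. The other runs higher in the control were on chromosome 3 from 110 to 160 Mb (0.52, SD 0.07) and on chromosome 6 from 0 to 30 and 60 to 80 Mb (0.36 and 0.50). Runs lower in the control were on chromosome 5 from 100 to 160 Mb (−0.65) and 20 to 40 Mb (−0.47), on chromosome 2 from 150 to 190 Mb (−0.57), on chromosome 17 from 20 to 50 Mb (−0.54) and 70 to 90 Mb (−0.46), on chromosome 11 from 90 to 130 Mb (−0.45), on chromosome 4 from 120 to 140 Mb (−0.45) and on chromosome 15 from 70 to 90 Mb (−0.38). The lowest window, chromosome 16 from 90 to 100 Mb, had 0.899 in the control and 1.57 in wild type (−0.87), with 0.850 in the knockout and 1.16 to 1.53 in the other 5. The largest step lay on chromosome 2 at 150 Mb (−0.64, distal minus proximal). The 3 highest windows included the ends of chromosomes 13 and 12, with 225 and 29 bins, and chromosome 14 from 0 to 10 Mb with 4597 bins (1.09 in the control, 0.509 in wild type). Chromosome X had 18 of 18 windows higher in the control (0.56).

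Within a line, the other libraries were close to wild type. Clone 35 over wild type had 0 of 257 windows past 5 to 4 (0.0%), with log2 ratios from −0.21 to 0.18 and an SD of 0.08. The chromosome farthest from 0 was 12, at 0.11, with 0.866 in clone 35 and 0.763 in wild type. Chromosome 8 was at 0.01 and chromosome 11 at −0.09. The ratio followed gene density (rank correlation −0.64). The largest step, −0.18, was on chromosome 9 at 30 Mb. H3K27ac over wild type, a comparison added after the data were seen, also had 0 of 257 windows past 5 to 4 (0.0%), with a range of −0.21 to 0.15 and a rank correlation of −0.71. In RGM wild type a window of chromosome 13 had a value of 0, so ratios with that library cover 256 windows. Clone 56 over RGM wild type had 1 of 256 windows past 5 to 4 (0.391%), chromosome 14 from 0 to 10 Mb (0.46). The values there were 0.340 in clone 56 and 0.232 in RGM wild type. Its chromosome medians lay between −0.06 and 0.07, with chromosome 8 at −0.04 and chromosome 11 at −0.03.

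Against the shallow input, wild-type anti-GZF1 had 7 of 257 windows past 5 to 4 (2.72%), 6 of them higher (2.33%), and H3K27ac had 11 (4.28%), 10 of them higher (3.89%). The run in both was chromosome 9 from 0 to 20 Mb, at 0.35 in wild type over input and at 0.48 in H3K27ac over input, where the input had 0.509 in both windows. No whole chromosome was past 0.20 on the log2 scale in either comparison. Ratios of summed reads, which do not move in steps, were 0.985 to 1.02 for wild type over input and 0.980 to 1.03 for H3K27ac over input across the autosomes.

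Between the lines, RGM wild type over Cas9 wild type had 31 of 256 windows past 5 to 4 (12.1%), with 20 higher (7.81%) and 11 lower (4.3%). Chromosome 6 stood highest in RGM, with 15 of 15 windows up and a median log2 ratio of 0.42 (SD 0.08, range 0.20 to 0.48). Chromosomes 18 (0.27, 10 of 10 windows), 2 (0.26, 16 of 19), 19 (0.24, 7 of 7) and 10 (0.22, 13 of 14) were also higher, and chromosome 5 was lower (−0.22, 16 of 16 windows). Centring shifted this comparison by 0.11 on the log2 scale, and without it chromosomes 2, 10, 18 and 19 were at 0.15, 0.11, 0.16 and 0.13, short of 0.20. Chromosome 19 also fell short under 3 other settings (0.18 to 0.198), chromosome 10 in windows of 20 Mb (0.16) and chromosome 5 under 3 settings (−0.1998 to −0.1955), while chromosome 6 stayed past 0.20 in all 11. Chromosome 8 was at −0.11 and chromosome 11 at −0.07. Chromosome X had 0.406 in RGM and 0.657 in Cas9 wild type (−0.57).

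The overexpression clones repeat the comparison between lines with other libraries and another antibody. Clone 56 over clone 35, added after the data were seen, had 42 of 257 windows past 5 to 4 (16.3%), with 23 higher (8.95%) and 19 lower (7.39%). Chromosome 6 was again highest at 0.42 in 15 of 15 windows (SD 0.11), with 1.24 in clone 56 and 0.987 in clone 35. Chromosome 2 had 0.24, chromosome 19 0.20 and chromosome 5 −0.28. Chromosome 2 fell short of 0.20 without centring (0.19), and chromosome 19, at the limit, under 5 of 11 settings (down to 0.16). Over 256 windows the log2 ratios of the comparisons, which share no library but share the genome and its gene density, had a Pearson correlation of 0.923 and a Spearman correlation of 0.921. Of 31 windows past 5 to 4 between wild types and 41 between clones, 23 were past it in both (74.2% and 56.1%), and 23 of these 23 had the same sign.

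**Figure D5:**
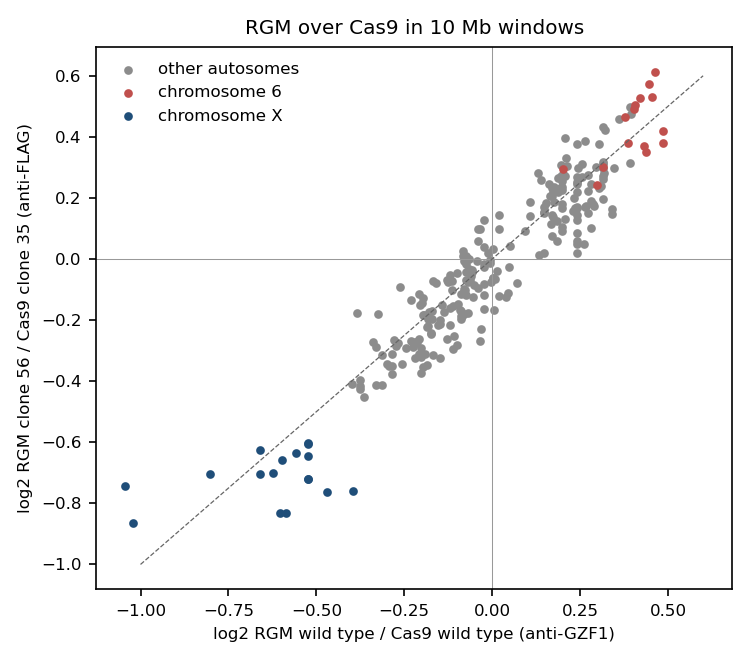
Each point is a 10 Mb window with at least 5000 bins, with the log2 ratio of RGM to Cas9 between wild-type libraries (anti-GZF1) on the horizontal axis and between clones 56 and 35 (anti-FLAG) on the vertical axis; the dashed line marks equal values. Chromosome 6 (red) lies at the upper right with a median of 0.42 on both axes, and chromosome X (blue) at the lower left.

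Several chromosomes changed level partway in both comparisons between lines, at the same 1 Mb position. Chromosome 3 divided at 79 Mb, with −0.17 before and 0.24 after it between wild types, and −0.25 and 0.17 between clones. Across this edge read density rose by 0.52 in RGM clone 56 and by 0.47 in RGM wild type, against 0.03 to 0.11 in the clone 35, H3K27ac, wild-type and input libraries of the Cas9 line, and 0.20 and 0.24 in the knockout and control. Chromosome 16 divided at 45 Mb, with 0.25 and −0.18 between wild types and 0.26 and −0.26 between clones. There density fell by 0.41 in RGM clone 56, by 0.38 in RGM wild type, by 0.19 in the Cas9 knockout and by 0.17 in the Cas9 control, and the same 4 Cas9 libraries had −0.08 to −0.02. On both chromosomes the step was largest in the RGM libraries, and the knockout and control stepped the same way by less.

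Chromosome 2 divided at 139 Mb, with 0.26 and −0.01 between wild types and 0.24 and −0.01 between clones. Here RGM clone 56 and RGM wild type stepped up by 0.09 and 0.12 and the Cas9 knockout and control by 0.12 and 0.11, against 0.40 to 0.50 in the same 4 Cas9 libraries. The larger step was thus in those 4 libraries and not in the whole line. Chromosome 4 divided at 123 Mb, on the chromosome with the largest step, with −0.12 and 0.36 between wild types and, between clones, −0.19 up to 117 Mb and 0.45 from 123 Mb. Across it density rose by 0.52 and 0.57 in RGM clone 56 and wild type, 0.03 and 0.05 in the knockout and control, and 0.23 to 0.51 in the 4 other Cas9 libraries. Chromosome 1 divided at 138 Mb, with −0.10 and 0.26 between wild types and −0.19 and 0.24 between clones. That is the 1 Mb position at which the knockout and the control parted. All 8 libraries fell across it, by 0.23 in the knockout, 0.55 in the control, 0.73 in RGM clone 56, 0.79 in RGM wild type and 0.86 to 1.2 in the 4 other Cas9 libraries. Chromosome 9 divided at 35 Mb between wild types (0.19 and −0.05), next to the knockout edge at 34 Mb, but did not divide between clones.

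Among the windows with a ratio, the lowest between wild types was chromosome 14 from 0 to 10 Mb, at −1.02 with 4597 bins. A window of chromosome 13 with a value of 0 in RGM wild type had no ratio. The first 34 Mb of chromosome 7 had −0.40 (SD 0.46 over 27 windows of 1 Mb). On chromosome 14 the 5 windows of 1 Mb before 9 Mb had an SD of 1.62, against 0.22 beyond. Between clones the lowest window was chromosome 13 from 120 to 130 Mb, at −1.91 with 225 bins. Chromosome 14 from 0 to 10 Mb followed, at −0.65.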

How the data were processed

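Chromatin immunoprecipitation and input libraries of mouse embryonic stem cells were read from 1 deposited table of 1 kb bins. Per the submitters' processing notes, reads were processed with cutadapt, Bowtie2 2.5.4, SAMtools and deepTools on mm10. The deposited values are expected counts of reads per bin, not scaled to depth, in which 100% of values were multiples of 0.05 within 0.0005 reads. How duplicates and multiply mapped reads were handled is not given in the sources used here. Reads from CAST alleles can align less often to mm10, and the part of this in RGM values was not tested. Each library was divided by its autosomal mean, window medians were taken over bins, and ratios of medians were centred on the median over autosomal windows. Stretches were found in 1 Mb windows as means of bins between the 10th and 90th percentile. Genes were placed with the RefSeq table of GRCm38.p6, the assembly of mm10: 39 of 40 listed names gave separate genes, since 1 is a synonym. Python 3.11.15 with numpy 2.4.6, pandas 2.3.3, scipy 1.17.1 and matplotlib 3.10.9 was used, and the 10 Mb window step was checked on simulated data. That simulation did not cover the division into stretches of 1 Mb windows. It drew every library from the same profile, so it also did not cover differences in chromatin or alignment between libraries.

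With 1 library per group no test was run, and the 95% intervals on ratios of summed reads cover counting error only. Total reads per library were 10.1 to 94.2 M. By rule, chromosomes past 0.20 on the log2 scale and the 3 highest and lowest windows were picked out in each comparison. Runs of 2 or more windows past a ratio of 5 to 4, the largest step, and chromosomes 8 and 11 were also taken. Not all of these are printed above, and the runs of the comparisons between lines are left out. The members and lists were chosen with earlier results of these data known. Clone 56 over clone 35, H3K27ac over wild type, the 1 Mb stretches and a minimum of 5000 bins were added after the data were seen.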

Additional observations from a re-analysis of the deposited data

How the results depend on the processing

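All 21 chromosome medians past 0.20 on the log2 scale kept their sign under the 11 alternatives of each, and 13 stayed past it in all. The other 8 were chromosome 11 in control over wild type, chromosomes 2, 5, 10, 18 and 19 in RGM over Cas9 wild type, and chromosomes 2 and 19 in clone 56 over clone 35. Counts of windows past the fold moved as follows. At a log2 ratio of 0.20 they were 73 for knockout over control, 116 for control over wild type, 1 for clone 35 over wild type, 3 for clone 56 over RGM wild type, 111 for RGM over Cas9 wild type, 118 for clone 56 over clone 35, 2 for H3K27ac over wild type, 25 for wild type over input and 38 for H3K27ac over input. At 1.4-fold they were 0, 32, 0 (unmoved), 0, 1, 10, 0 (unmoved), 0 and 4 in the same order. For clone 56 over RGM wild type, the mean of bins within the 10th to 90th percentile, summed reads over bins with usable input, bins of low or high input left out, windows of 20 Mb and a minimum of 5000 bins each gave 0, windows of 5 Mb gave 1 of 500, and no centring gave 2. For wild type over input, the percentile mean and the input limits gave 1 each, summed reads 3, keeping bins with 0 reads 13, windows of 5 Mb 25 and windows of 20 Mb 8 of 134. For H3K27ac over input the percentile mean and the input limits gave 3 each, summed reads 1, keeping bins with 0 reads 22, windows of 5 Mb 41 and windows of 20 Mb 9 of 134. Keeping bins with 0 reads gave 2 for clone 35 over wild type, and the percentile mean gave 1 for H3K27ac over wild type. The cause was not tested.

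No paired analysis was possible because each group has 1 library. The input (3.93 reads per bin) and RGM wild type (8.61) limit the precision of their ratios, and windows at chromosome ends rest on few bins, 8 of them on fewer than 2000.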
